A study of Saccharomyces cerevisiae with 12 samples.

Results

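Transcript levels of the genes that make arginine, histidine, the aromatic amino acids, serine, proline and asparagine were followed on 12 Affymetrix yeast arrays, together with GCN4, the gene of their common activator. The members were taken by name from a list of 37 genes, not by a cut on their measured values. The list was chosen with earlier results of these data known. Of the 37 genes, 36 had a probe set among the 5449 Saccharomyces cerevisiae genes named on the array. They were GCN4, 7 of 8 listed arginine genes, 7 histidine genes, 12 aromatic genes, 4 serine genes, 3 proline genes and 2 asparagine genes. No probe set was listed under ARG5,6, and its level was not analysed here. Each of the 36 had exactly 1 probe set, and all 36 were above the background level on all 12 arrays.

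The cultures came from 2 laboratory strains, Σ1278b, which can invade agar and form filaments, and S288c, the strain of the reference genome, here BY4742. In Σ1278b there were 3 arrays with FLO11, the gene of a cell surface adhesin, overexpressed from the PGK1 promoter on a multicopy plasmid, and 3 arrays of a first wild type with an empty vector. A second series of single Σ1278b arrays held a multicopy FLO8 plasmid, a multicopy MSS11 plasmid, a deletion of MSS11 made with LEU2, and a second wild type with an empty vector. Both genes code for activators of FLO11, and S288c is known to carry a nonsense mutation in FLO8. In S288c there was 1 array with multicopy MSS11 and 1 wild type array with an empty vector. By the labels every Σ1278b culture was MATα and carried the alleles ura3-52 and his3Δ::hisG together with leu2Δ::hisG and trp1Δ::hisG. The study's methods give BY4742 as MATα and as lacking HIS3, LEU2, LYS2 and URA3. They list the Σ1278b background as MATa, against the labels. All cultures grew at 30 °C in 5 ml of synthetic dropout medium with 2% glucose. The labels place the harvest in early stationary phase, while the methods describe exponential cultures. Amino acids were supplied according to each strain's requirements, so strain, auxotrophies, supplements and the match of the probes to each strain's sequence cannot be told apart.

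In yeast these pathways are under general amino acid control. When an amino acid runs short, uncharged tRNA activates the kinase Gcn2, translation of GCN4 mRNA rises, and the Gcn4 protein activates biosynthetic genes of many pathways at once. Because the main control is on translation, the level of GCN4 mRNA is a poor guide to the amount of Gcn4. Pathway regulators act beside it, among them the ArgR complex, which represses arginine synthesis genes when arginine is present, and Bas1, which acts with Pho2 on purine and some histidine genes.

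Signals are given on the log2 scale, and a log2 difference of 1 is 2-fold. The median log2 signal was 10.72 to 10.84 over the arrays and the background level was 4.77 to 4.90. The labelled changes were visible: FLO11 was 14.81 to 14.88 with the FLO11 plasmid, against 11.95 to 12.27 in the first wild type, and FLO8 was 14.65 with its plasmid, against 10.34 in the second wild type. MSS11 was 12.29 with its plasmid and 6.87 in the deletion, against 8.22 in the second wild type, and in S288c 11.45 with the plasmid, against 8.49. LYS2 was 4.21 or less on both S288c arrays, against 12.54 to 13.47 in Σ1278b. The second wild type carried another marker than the first, with a URA3 signal of 14.73 against 8.57 to 8.71 and a LEU2 signal of 13.04 against 14.98 to 15.004. LEU2 was 12.93 with the FLO8 plasmid, 13.02 with MSS11 and 13.04 in the second wild type, against 7.40 with MSS11 and 7.06 in the wild type of S288c. The labels give leu2Δ::hisG for these Σ1278b cultures, and the source of their LEU2 signal was not tested. The 4 α-specific genes were bright on every array, with a mean log2 signal of 12.56 to 13.61. The S288c arrays stood apart in 6 a-specific genes, whose mean was 8.65 with MSS11 and 10.01 in the S288c wild type, against 6.58 to 7.34 in Σ1278b. They also stood apart in 8 stress-induced genes, with a mean of 12.37 with MSS11 and 11.99 in the S288c wild type, against 9.56 to 11.04 in Σ1278b.

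Within a group the genes of amino acid synthesis were steady. The largest difference between any pair of replicate arrays had a median of 0.12 log2 units over the 36 genes and ran from 0.02 in TRP3, which makes indole glycerol phosphate, to 0.49 in HIS3. Over all probe sets this median was 0.17. Across the 12 arrays the range of a gene had a median of 0.56, against 0.58 over all probe sets, and across the 10 Σ1278b arrays it was 0.29, against 0.38. The S288c wild type array was the highest of the 12 for 23 of the 36 genes, while 19.6% of all probe sets were highest there.

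**Figure D1:**
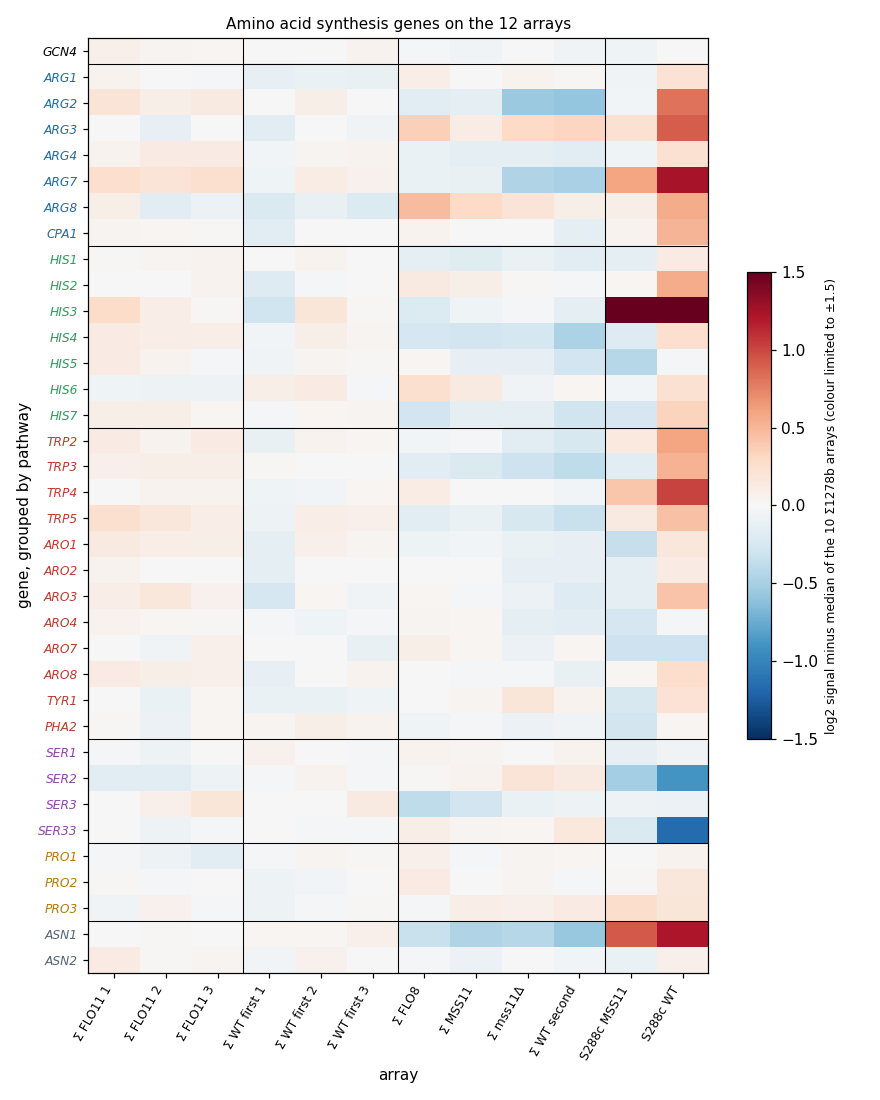
Log2 signal of each of the 36 genes (rows, grouped by pathway) on each of the 12 arrays (columns), minus the gene's median over the 10 Σ1278b arrays, in colour limited to 1.5 log2 units either way. The S288c wild type column is the reddest, with 23 of 36 genes at their highest, and SER2 and SER33 are blue there.

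FLO11 overexpression was the only comparison with replicates. The study made it to learn how far high Flo11 could account for the effects of MSS11 overexpression. None of the amino acid synthesis genes changed past the threshold of limma at an adjusted p of 0.05 (0 of 36, 3 arrays per group), where 6.35% of all 5498 probe sets did. At an unadjusted p under 0.05 there were 5 of 36, against 23% of all probe sets. These were ARG1, ARG7 and ARO3 with higher and HIS6 and SER2 with lower mean signals in the FLO11 strain. The differences ran only from −0.14 to 0.20 log2 units.

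The arginine genes had a median difference of 0.11, and all 7 were above 0. ARG7, the mitochondrial ornithine acetyltransferase, had log2 signals of 12.86, 12.81 and 12.85 with FLO11, against 12.54, 12.72 and 12.68 in the wild type. The 3 FLO11 arrays lay above the 3 wild type arrays, with a difference of 0.19 (SE 0.056, adjusted p = 0.0937 by limma). ARG1, the argininosuccinate synthetase, had 14.62, 14.58 and 14.55 with FLO11 and 14.44, 14.47 and 14.45 in the wild type, a difference of 0.13 (SE 0.041, adjusted p = 0.1255 by limma). The groups did not overlap here either, but neither gene passed the threshold. ARG2, the acetylglutamate synthase that opens the pathway, averaged 10.80 ± 0.05 with FLO11 and 10.69 ± 0.05 in the wild type (SD, n = 3 each), and the groups overlapped.

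Among the aromatic genes, ARO3, the phenylalanine-inhibited DAHP synthase, had 13.64, 13.71 and 13.60 with FLO11, against 13.29, 13.57 and 13.49 in the wild type. This was the largest difference of the 36 genes, 0.20 (SE 0.077, adjusted p = 0.1722 by limma), and 1 wild type array lay well below the other two. The lower side was held by SER2, the phosphatase of the last step of serine synthesis, with 12.09, 12.10 and 12.19 with FLO11 and 12.25, 12.31 and 12.23 in the wild type. Its difference was −0.14 (SE 0.048, adjusted p = 0.1446 by limma). HIS6, an isomerase of histidine synthesis, averaged 11.15 ± 0.01 with FLO11 and 11.29 ± 0.08 in the wild type (SD, n = 3 each). GCN4 itself had 14.60, 14.57 and 14.55 with FLO11 and 14.53, 14.51 and 14.57 in the wild type, and the groups overlapped.

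Small shifts of 1 sign were common in the list without any gene passing the test. The mean was higher with FLO11 for 29 of 36 genes, against 44.2% of all probe sets, and the median difference was 0.06, against −0.01 over all probe sets. In 15 of 36 genes the groups did not overlap, against 29.5% of all probe sets, of which 11 were higher with FLO11, against 12.4%, and 4 lower, against 17.1%. With limma's trend and robust options 2 of 36 passed, where 7.42% of all probe sets did, ARG1 (adjusted p = 0.0129) and ARG7 (adjusted p = 0.0474). The stress-induced genes moved in the same comparison, 6 of 8 passing the test as higher with FLO11. Their part in the shift of the amino acid genes was not tested.

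**Figure D2:**
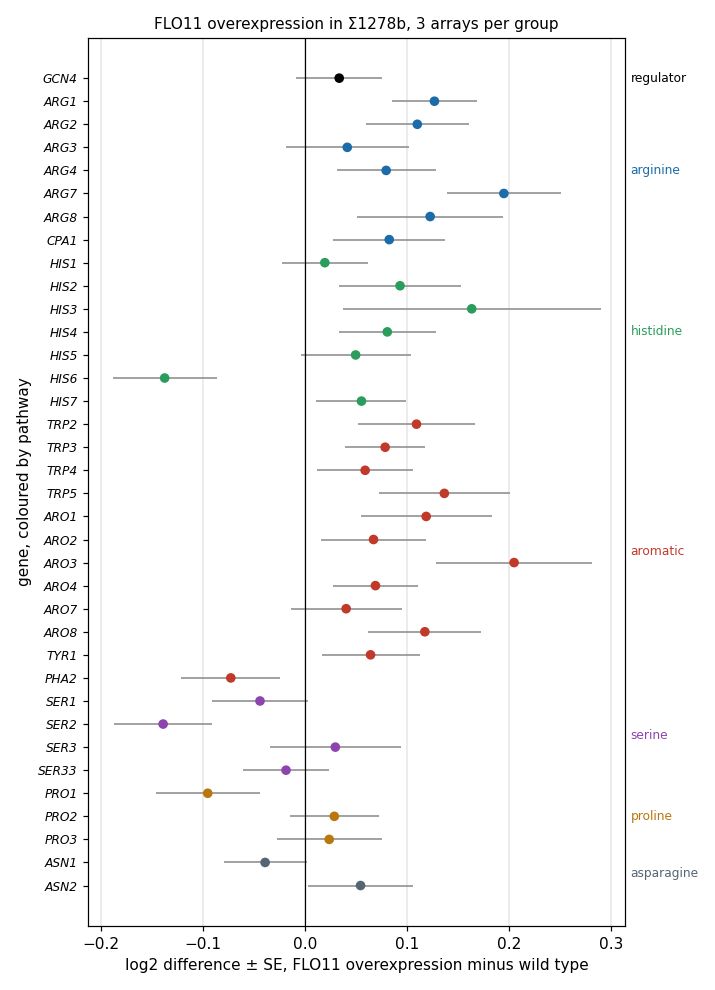
Log2 difference of each gene between the 3 FLO11 arrays and the 3 wild type arrays of Σ1278b (points, with bars of 1 SE from limma, coloured by pathway). The points lie between −0.14 and 0.20, mostly right of 0, and none passed the adjusted threshold.

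In neighbouring gene lists single genes passed the test, to be read against the 6.35% of all probe sets that did. None passed among 12 purine genes and regulators, 3 genes of aromatic amino acid use and 18 tRNA synthetase genes. CAR2, the ornithine aminotransferase of arginine breakdown, rose by 0.76 (adjusted p = 0.0033 by limma), with 8.948, 9.050 and 8.999 with FLO11 against 8.08, 8.40 and 8.23 in the wild type. It was 1 of 6 genes of arginine regulation and use to pass. Of 13 amino acid permeases, BAP2, a permease of branched-chain amino acids, rose by 0.93 and GAP1, the general permease, by 0.44, while TAT1, a permease of tyrosine and other amino acids, fell by 0.54. In glutamate and glutamine metabolism 2 of 8 rose, ALT1, an alanine transaminase, by 0.50 and GDH2 by 0.35, and in proline use 2 of 4, PUT4 by 0.40 and PUT1 by 0.38. AGX1, which makes glycine, and THR1, a kinase of threonine synthesis, rose by 0.52 and 0.38, the 2 of 13 in that list. PCL5, a cyclin that promotes Gcn4 breakdown and is itself a Gcn4 target, rose by 0.40, the only one of 14 genes around Gcn4 to pass. The changes of CAR2, ALT1, BAP2, GAP1 and TAT1 passed with any 1 array left out. Those of THR1 and PUT1 failed with each of the 6 arrays left out, that of GDH2 with each but wild type replicate 3, that of PCL5 with each but wild type replicates 1 and 3, AGX1 without FLO11 replicate 3 or wild type replicate 2, and PUT4 without wild type replicate 2.

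The 3 single arrays of changed regulators in Σ1278b were set against the second wild type array, which all 3 comparisons share. With 1 array in each group there was no test, and a gene was called different from 2-fold upwards. As a second measure, a difference was set beside the largest one seen between replicate arrays for that gene. No amino acid synthesis gene differed 2-fold with FLO8 (0 of 36, against 0.818% of all probe sets), with MSS11 (0 of 36, against 1.22%) or without MSS11 (0 of 36, against 0.637%).

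FLO8 overexpression gave the widest spread of the 3, from −0.30 to 0.42. Differences went beyond the replicate pairs in 17 of 36 genes, against 24.7% of all probe sets, of which 14 were higher with FLO8, against 12.1%, and 3 lower, against 12.6%. ARG2 was 10.495 with FLO8 and 10.08 in the wild type, a difference of 0.42, ARG8, the acetylornithine aminotransferase, was 13.44 and 13.06, and ARG7 was 12.51 and 12.12. The median of the 7 arginine genes was 0.19. HIS5, the histidinol-phosphate aminotransferase, was 13.21 with FLO8 and 12.89 in the wild type. On the lower side was SER3, which opens serine synthesis as 3-phosphoglycerate dehydrogenase, with 12.86 with FLO8 and 13.16 in the wild type. The 8 stress-induced genes had a median difference of 1.06 in this pair.

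With MSS11 overexpressed in Σ1278b ARG2 and ARG7 led. ARG2 was 10.51 with MSS11 and 10.08 in the wild type, and ARG7 was 12.50 and 12.12, while ARG3, the ornithine carbamoyltransferase, was 13.23 with MSS11 and 13.44 in the wild type. In total 13 of 36 genes differed by more than their replicate pairs, against 24% of all probe sets. Of these 10 were higher, against 13.9%, and 3 lower, against 10.1%. TRP5, the tryptophan synthase, was 13.35 with MSS11 and 13.13 in the wild type. The stress-induced genes had a median difference of 1.04 here as well.

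Without MSS11, 7 of 36 genes went beyond their replicate pairs, near the 20.6% of all probe sets, and differences ran from −0.13 to 0.21. HIS4, a multifunctional enzyme of histidine synthesis, was highest, with 13.76 in the deletion and 13.55 in the wild type. ARG2 was 10.10 in the deletion and 10.08 in the wild type, and ARG7 was 12.16 and 12.12, so both lay near the wild type and below the FLO8 and MSS11 arrays.

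These values rest on the shared wild type array. It was the lowest of the 12 arrays for 9 of the 36 genes, while 5.18% of all probe sets were lowest there. Against the first wild type the median differences were 0.01 with FLO8, −0.01 with MSS11 and −0.03 without MSS11, in place of 0.09, 0.08 and 0.05. ARG2 was 10.65 to 10.75 in the first wild type, above all 4 single Σ1278b arrays, and ARG7 was 12.54 to 12.72, likewise above them.

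Set against the mean of the first wild type, the second wild type had lower signals for 24 of 36 genes, against 54.7% of all probe sets, and a median difference of −0.09, against −0.02. No gene differed 2-fold (0 of 36, against 1.55%), 2 differed 1.5-fold, against 5.35%, and 9 passed in a limma fit over all 12 arrays, against 18%. ASN1, an asparagine synthetase, was 12.81 in the second wild type and 13.41, 13.42 and 13.46 in the first, a difference of −0.62. ARG2 differed by −0.61, ARG7 by −0.52 and HIS4 by −0.50, while ARG3 was 13.44 in the second wild type and 12.94, 13.11 and 13.06 in the first. Differences between the 2 empty vector strains thus reached further than any that FLO8, MSS11 or the deletion showed in these genes, and arginine genes lay on both sides.

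Of 13 amino acid permeases 5 were 2-fold higher in the second wild type, where 0.618% of all probe sets were. BAP3, another branched-chain permease, was 12.41 in the second wild type and 8.27, 8.58 and 8.72 in the first, a difference of 3.88. TAT1 and BAP2 were higher by 2.48 and 1.41. The others were GNP1 and ALP1, and ALP1 had 4.83, 4.83 and 5.02 in the first wild type, near the background, so no fold is given for it. None was 2-fold lower, and CAN1 and GAP1 were lower at 1.5-fold. GNP1, ALP1 and CAN1 were named after their values were seen. CAR2 was 9.56 in the second wild type and 8.08, 8.40 and 8.23 in the first. The plasmid marker and the place in the series differ together between these wild types and cannot be told apart.

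The S288c wild type was set against the second Σ1278b wild type to compare the strains, again 1 array each and without a test. At 2-fold 7 of 36 genes differed, against 8.6% of all probe sets, 5 higher (5.33% of all) and 2 lower (3.27% of all) in S288c. At 1.5-fold 16 differed, against 20.7%, and in a limma fit over all 12 arrays that borrows the spread of the replicated groups 21 passed, against 43.1%. Beyond their replicate pairs 27 were higher, against 28.2% of all probe sets, and 4 lower, against 37.1%. At any size 31 of 36 were higher in S288c, against 44.9% of all probe sets, and the median difference was 0.29, against −0.04. The S288c wild type lay above all 10 Σ1278b arrays for 24 of 36 genes, against 25.8%, and below all of them for 3, against 35.9%. HIS3 is deleted in Σ1278b and only partly in BY4742. Its signal was 13.23 in S288c and 7.90 in Σ1278b, and without it the median was 0.28.

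ARG7, ARG2 and ASN1 led the rest. ARG7 was 13.84 in S288c and 12.12 in Σ1278b, 3.29-fold higher, and ARG2 was 11.47 and 10.08, 2.63-fold higher. Both S288c values lay above all 10 Σ1278b arrays, of which the highest were 12.86 and 10.85. ASN1 was 14.60 in S288c and 12.81 in Σ1278b, 3.45-fold higher, while ASN2, the second asparagine synthetase gene, was 13.67 and 13.55. All 7 arginine genes were higher in S288c by more than their replicate pairs, with a median difference of 0.59. Against the first wild type this median was 0.73, and in the pair of strains with MSS11 it was 0.07. Among them ARG3 was 14.03 in S288c and 13.44 in Σ1278b, and CPA1, the small subunit of carbamoyl phosphate synthetase, was 14.21 and 13.56.

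All 7 histidine genes were also higher in S288c beyond their replicate pairs, with a median of 0.59, which depended on the array they were set against. Against the first wild type 6 of 7 were higher and the median was 0.22, with HIS5 at −0.02. In the pair with MSS11 3 of 7 were higher and the median was −0.06. HIS3, which is deleted in Σ1278b, counts as higher in each of these comparisons, at 5.32, 5.22 and 4.99, and enters the medians. A median without it was not taken for this group. HIS4 was 14.27 in S288c and 13.55 in Σ1278b, HIS7, which makes the imidazole ring, was 13.12 and 12.47, and HIS5 had a smaller difference of 0.27. In the aromatic group 11 of 12 genes were higher, with a median of 0.34. Against the first wild type 10 were higher and the median was 0.30. In the pair with MSS11 5 were higher, 7 were lower and the median was −0.13. Within the wild type pair the tryptophan branch stood highest. TRP4, the anthranilate phosphoribosyltransferase, was 13.14 in S288c and 12.09 in Σ1278b, 2.08-fold higher, and TRP3, TRP2 and TRP5 were higher by 0.90, 0.82 and 0.77. The phenylalanine and tyrosine branch had smaller differences, 0.17 in TYR1 and 0.08 in PHA2, and ARO7, the chorismate mutase that feeds it, was 11.0047 in S288c and 11.34 in Σ1278b. TRP1 is deleted in Σ1278b by the labels and was not analysed here.

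The other genes of these pathways were higher in S288c as well in the wild type pair. ARG8, ARG4, the argininosuccinate lyase, and ARG1 differed by 0.47, 0.41 and 0.20, and HIS2, the histidinol phosphatase, HIS1, which opens the pathway, and HIS6 by 0.59, 0.28 and 0.20. In the common part of the aromatic pathway ARO3 was 13.97 in S288c and 13.34 in Σ1278b, a difference of 0.62, while ARO4, the tyrosine-inhibited DAHP synthase, differed by 0.16. ARO1, the multifunctional shikimate enzyme, ARO2, the chorismate synthase, and ARO8, an aminotransferase, had differences of 0.30, 0.25 and 0.38.

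In serine synthesis 3 of 4 genes were lower in S288c beyond their replicate pairs. SER33, one of a pair of 3-phosphoglycerate dehydrogenases, was 12.26 in S288c and 13.57 in Σ1278b, 2.48-fold lower in S288c, and SER2 was 11.37 and 12.40, 2.04-fold lower. SER3, the other dehydrogenase, was 13.15 in S288c and 13.16 in Σ1278b, so the pair did not move together. SER1, the transaminase between the dehydrogenases and SER2, had a difference of −0.11. The proline genes PRO1, the glutamate kinase, PRO2, the reductase of its product, and PRO3, the last enzyme, differed by 0.02, 0.19 and 0.06. GCN4 mRNA was 14.53 in S288c and 14.47 in Σ1278b, a difference of 0.05, within the 0.06 seen between replicates.

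Genes of neighbouring pathways differed as well. ORT1, the mitochondrial ornithine carrier, was 12.75 in S288c and 11.54 in Σ1278b, and ARG80, a subunit of the ArgR complex, was higher by 1.17, 2 of 6 genes of arginine regulation and use at 2-fold. PCL5 was 13.67 in S288c and 12.36 in Σ1278b, the only one of 14 genes around Gcn4 at 2-fold. ARO9 and ARO10, which start aromatic amino acid breakdown, were each higher by 1.95. In the list of purine genes and their regulators 9 of 12 were lower beyond their replicate pairs, against 37.1% of all probe sets. MTD1, a one-carbon enzyme, was at −1.26, ADE1 at −1.001 and ADE4 at −0.96. BAS1 and ADE16 went the other way beyond their replicate pairs, at 0.78 and 0.18. The methionine permease MUP1 was 11.23 in S288c and 13.61 in Σ1278b. The lysyl-tRNA synthetase gene KRS1 was higher by 2.97, and no other of 18 synthetase genes differed 2-fold.

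The a-specific and stress-induced genes moved in the same pair of arrays, with medians of 3.32 and 2.56 above Σ1278b. STE2, the α-factor receptor, was 12.14 in the S288c wild type, against 7.86 in the Σ1278b wild type. Their part in the differences of the amino acid genes was not tested. Against the first Σ1278b wild type 5 of 36 genes differed 2-fold, where 9.69% of all probe sets did: HIS3, ASN1 (1.17), ARG7 (1.20), TRP4 (1.04) and SER33 (−1.13). ARG2 (0.78) and SER2 (−0.89) did not.

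The strains could also be compared where both carried the MSS11 plasmid, which shares no array with the wild type pair and was added after the values were seen. Here 2 of 36 genes differed 2-fold, against 6.46% of all probe sets. HIS3 was 12.97 in S288c and 7.98 in Σ1278b, and ASN1 was 14.31 and 12.94, 2.58-fold higher. The median difference over the 36 genes was 0.00, with 18 higher, against 39% of all probe sets, and 18 lower. Of the 36 genes 17 were higher in S288c in both pairs, against 30% of all probe sets, and 4 lower in both, against 46.1%. The sign changed in 15, against 23.9%, and 27 had a smaller difference in the MSS11 pair, against 52.4%.

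With MSS11, S288c lay above all 10 Σ1278b arrays for 6 of 36 genes, against 20.2% of all probe sets, and below all of them for 12, against 38.4%. A few genes had the same place on both S288c arrays. ARG7, HIS3, TRP2, TRP4, PRO3 and ASN1 were above all 10 Σ1278b arrays on both, 6 of 36, against 15.4% of all probe sets. ARO7, SER2 and SER33 were below all 10 on both, 3 of 36, against 28.2%. ARG7 with MSS11 was 13.21 in S288c and 12.50 in Σ1278b, and SER2 was 11.75 and 12.31. ARG2, by contrast, was 10.62 with MSS11 in S288c and 10.51 in Σ1278b.

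**Figure D3:**
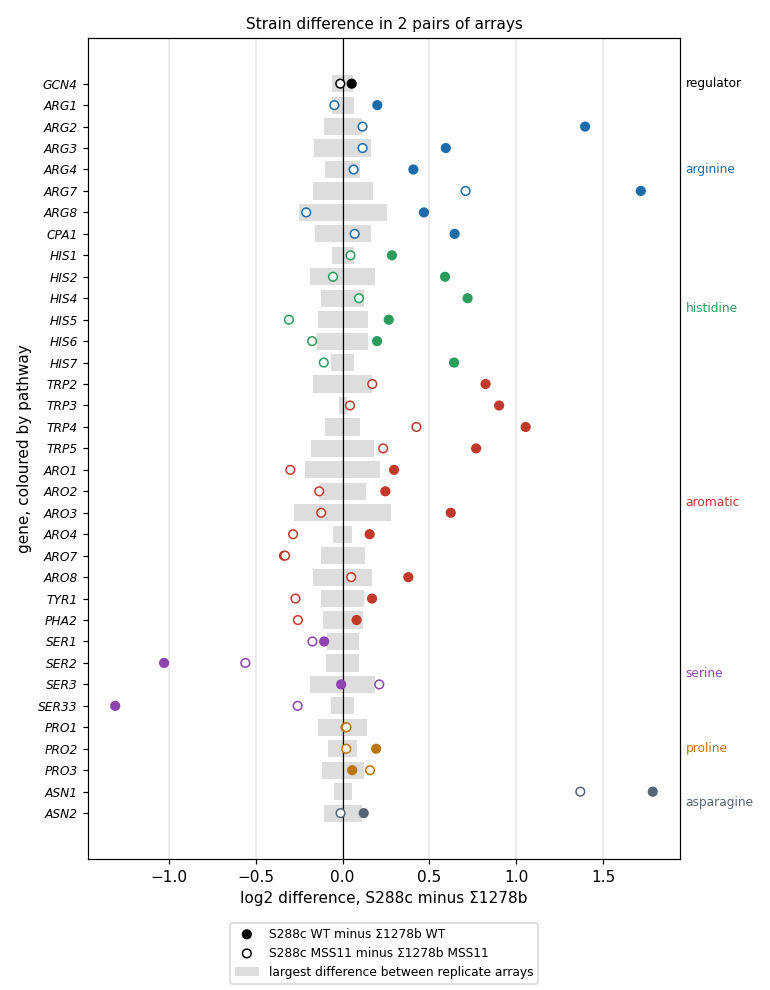
Log2 difference between S288c and Σ1278b for 35 genes (HIS3 left out), for the wild type pair (filled) and the MSS11 pair (open), with grey bars for the largest difference between replicate arrays of that gene. Filled points of arginine, histidine and tryptophan genes lie to the right, most open points lie near 0, and ASN1 is right of 1 in both pairs.

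MSS11 overexpression in S288c, set against the S288c wild type, gave lower signals for most of the same list. That wild type array is the same one whose signals were higher in the strain comparison. Both results rest on it and are not independent, and an effect of MSS11 cannot be told apart from a deviation of that array. No gene reached 2-fold (0 of 36, against 1.67% of all probe sets). At 1.5-fold 7 of 36 differed, against 6% of all probe sets, 6 lower and 1 higher with MSS11, and 18 passed in the limma fit over all 12 arrays, against 12.4%. At any size 31 of 36 were lower, against 55.2% of all probe sets, and 28 were lower beyond their replicate pairs, against 26.2%. The median difference was −0.30, against −0.02. The study's list of genes significant in this comparison, from biological repeats, holds as printed no gene of the 36. Absence from that list does not show that a gene was unchanged.

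All 7 arginine genes were lower with MSS11 in S288c, with differences of −0.85 to −0.28. ARG2 was 10.62 with MSS11 and 11.47 in the wild type, 1.80-fold lower, ARG3 was 13.35 and 14.03, and ARG7 was 13.21 and 13.84. All 7 histidine genes were lower as well, with a median of −0.41, and HIS7 was 12.52 with MSS11 and 13.12 in the wild type. Of the 12 aromatic genes 11 were lower beyond their replicate pairs. TRP3 was 12.30 with MSS11 and 13.00 in the wild type, TRP4 was 12.55 and 13.14, and ARO7 was the exception with a difference of 0.00. ASN1 was 14.31 with MSS11 and 14.60 in the wild type, and ASN2 was 13.49 and 13.67, both lower beyond their replicate pairs. The proline genes differed by −0.15 to 0.08.

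Of the 4 serine genes SER33 and SER2 were higher with MSS11 beyond their replicate pairs. SER33 was 13.19 with MSS11 and 12.26 in the wild type, 1.90-fold higher, and SER2 was 11.75 and 11.37. SER3 was 13.16 with MSS11 and 13.15 in the wild type, and SER1 was 13.50 and 13.58. GCN4 mRNA was 14.46 with MSS11 and 14.53 in the wild type, a difference of −0.07 beside the 0.06 between replicates.

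ORT1 was 11.73 with MSS11 and 12.75 in the S288c wild type, PCL5 was 13.01 and 13.67, and MUP1 was 12.65 and 11.23. BAP2 was 12.34 with MSS11 and 13.34 in the wild type. The 6 a-specific genes moved in the same pair, with a median difference of −1.44, while the stress-induced genes had a median of 0.39. What part the a-specific signal has in the lower amino acid genes was not tested.

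**Figure D4:**
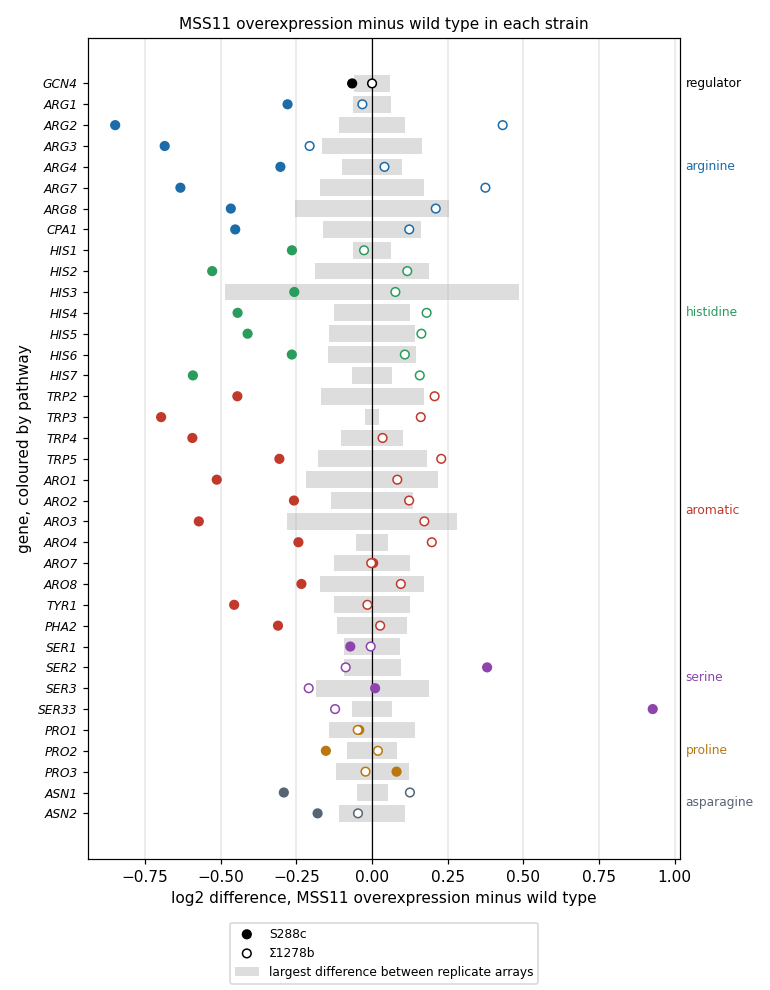
Log2 difference between MSS11 overexpression and wild type for each gene in S288c (filled) and Σ1278b (open), with grey bars for the largest difference between replicate arrays. Filled points of 31 genes lie left of 0, SER33 lies at 0.93, and the open points lie between −0.21 and 0.43.

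The MSS11 plasmid could be followed in both strains. A fit of limma over all 12 arrays, added after the values were seen, tested the difference between the strains in the MSS11 effect, with the spread taken from the replicated FLO11 and first wild type groups. The single arrays are assumed to vary like those, which these data cannot show. Of the 36 genes 8 passed the threshold, against 4.77% of all probe sets, 7 with a lower effect in S288c (3.26% of all) and 1 with a higher one (1.51% of all). The MSS11 effect on ARG2 was −0.85 in S288c and 0.43 in Σ1278b, a difference between the effects of −1.28 (SE 0.12, adjusted p = 0.0050). For ARG7 it was −1.01, for TRP3 −0.86, for HIS7 −0.75 and for SER33 1.05. HIS4, TRP2 and TRP4 passed with differences of −0.63 to −0.65. As each arm is 1 array, the S288c wild type array and the second Σ1278b wild type array enter all 8. The latter was the lowest of the 12 arrays for ARG2, ARG7, HIS4, HIS7, TRP2 and TRP3. With MSS11 in Σ1278b ARG2 was 10.51, against 10.65 to 10.75 in the first wild type, and ARG7 was 12.50, against 12.54 to 12.72. For both genes the sign of the MSS11 effect in Σ1278b thus depended on the wild type used. The fit was not repeated with the first wild type as reference.

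**Figure D5:**
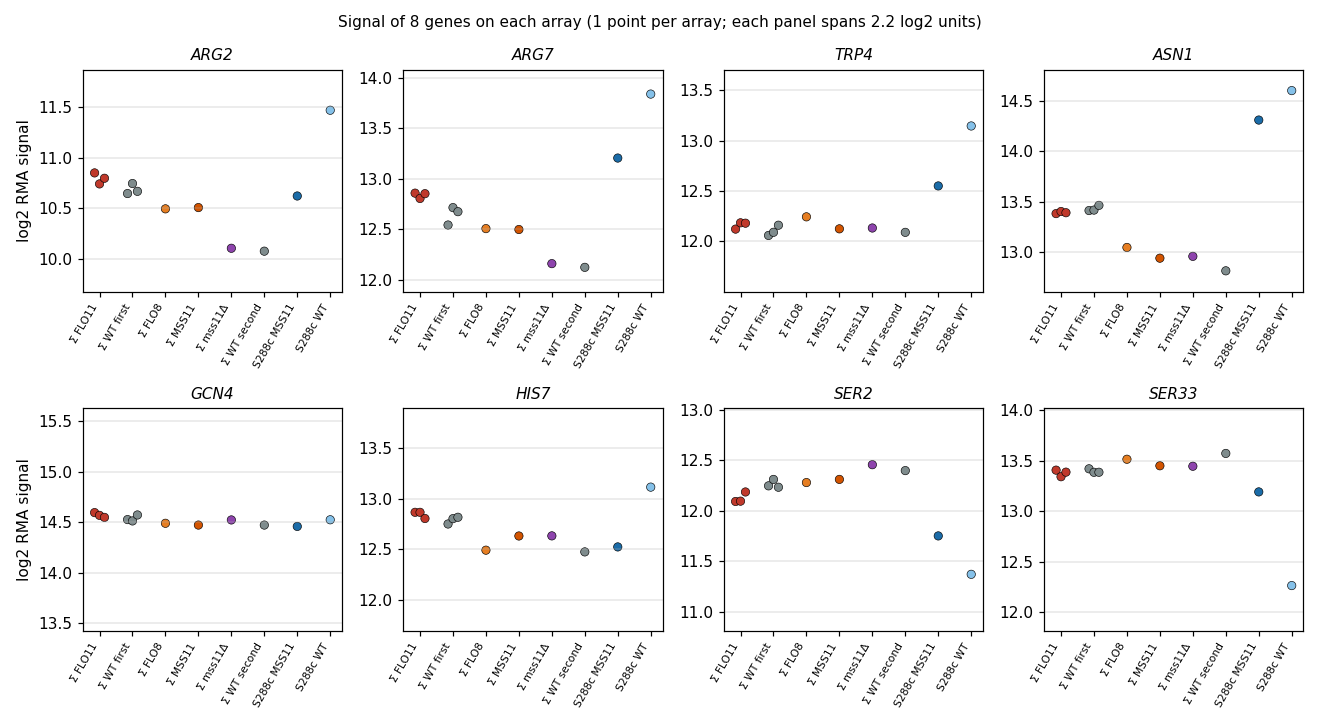
Log2 signal of ARG2, ARG7, TRP4, ASN1, GCN4, HIS7, SER2 and SER33 on each array (1 point per array), with each panel spanning the same height. ARG2, ARG7, TRP4 and HIS7 peak on the S288c wild type array, SER2 and SER33 are lowest there, and GCN4 is level across the groups.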

How the data were processed

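RNA of 12 cultures was hybridised to Affymetrix Yeast Genome 2.0 arrays. The authors deposited RMA signal intensity (background corrected, normalized and summarised to 1 value per probe set) on a linear scale, and its RMA version was not stated in the sources read. The log2 of each intensity was taken. Of 10928 probe sets, 5498 that were annotated to a single S. cerevisiae gene were analysed (5449 genes, 12 symbols updated). The 95th percentile of 1747 probe sets of other listed genes, taken as Schizosaccharomyces pombe, served as the background level of an array.

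Groups came from the sample labels, which call the arrays biological replicates. FLO11 overexpression was tested by a two-sided moderated test (limma 3.58.1 under R 4.3.3, lmFit followed by eBayes), adjusted by Benjamini-Hochberg over 5498 probe sets at a threshold of 0.05. Single arrays were compared by their log2 difference with no test, called at 2-fold where the brighter array was above background, and set beside the largest of the 6 differences between replicate arrays. The number of arrays limits the precision. Scripts were tested on simulated data.

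The members and gene lists were chosen with earlier results of these data known. All members could be named, with the manipulated genes, the selection markers and up to 3 genes of each neighbouring list by the size of the difference in a comparison. STE2, STE6, AGA2, GNP1, ALP1, CAN1, BAS1 and ADE16 were chosen after their values were seen. Companion lists covered arginine regulation and use, purines, aromatic, proline, glycine, threonine, glutamate and glutamine metabolism, Gcn4 control, tRNA synthetases and permeases. Alternatives were other normalization, thresholds, references, probe set choices, pooled fits, a replicate block and each array left out. Of same-numbered arrays in both groups, the deviations correlated at 0.03, −0.12 and −0.27, within the −0.28 to 0.40 of all pairs. No shared deviation was seen, but 3 arrays per group cannot show that the cultures were unpaired.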

Additional observations from a re-analysis of the deposited data

Results flagged for a closer look

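The difference between the strains in the effect of MSS11 stood out for 8 genes by limma's test of the difference itself, in the fit over all 12 arrays with the spread of the replicated groups. For 7 of them the effect was lower in S288c than in Σ1278b, by −1.28 log2 units in ARG2, −1.01 in ARG7, −0.86 in TRP3, −0.75 in HIS7, −0.65 in TRP2, −0.63 in TRP4 and −0.63 in HIS4. In SER33 the effect was higher in S288c, by 1.05. All 8 rest on the S288c wild type array and on the second Σ1278b wild type array. ARG2 and ARG7 with MSS11 in Σ1278b lay above the second wild type and below the 3 first wild type arrays. The sign of the Σ1278b effect in both genes thus depended on the wild type used, and the fit was not repeated with the first wild type. Each arm was 1 array, and all 6 a-specific genes passed the same test with differences of −1.07 in STE6 to −3.28 in AGA2, so the same arrays carried both. Whether the amino acid genes and the a-specific genes moved for a common reason was not tested.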

How the results depend on the processing

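No gene of the list passed in the FLO11 comparison with any 1 array left out, and the median difference then ran from 0.03 to 0.07. With limma's trend and robust options 2 genes passed. With replicate number as a block 0 genes passed and the median was 0.06. Small differences turned sign: with the wild types of both sets together ARG3 was −0.059, PRO3 −0.014 and ASN1 0.11, and with 1 array left out PRO3 ran from −0.0109 to 0.0495, SER3 from −0.0196 to 0.0737 and ARG3 from −0.0057 to 0.0806. Against the first wild type the medians were 0.0123 with FLO8, −0.0092 with MSS11 and −0.0333 without MSS11.

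For S288c with MSS11, 7 genes differed at 1.5-fold and 18 by limma over all 12 arrays, against 0 at 2-fold. Between the strains 16 differed at 1.5-fold, 21 by limma over all 12 arrays and 2 in the MSS11 pair, against 7. The median strain difference was 0.35 with arrays centred on their median, 0.22 against the first wild type and 0.0045 in the MSS11 pair, against 0.29. For the second wild type against the first, 2 differed at 1.5-fold and 9 by limma over all 12 arrays, against 0 at 2-fold. With 1 first wild type array left out this count stayed 0 and the median ran from −0.12 to −0.06.

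Single arrays carry no spread of their own, and limma over all 12 arrays lends them that of other groups. Each gene has 1 probe set, so choices among probe sets changed no value. The cause of the other shifts was not tested.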

Other observations

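ARO9 and ARO10, the aminotransferase and decarboxylase that break down aromatic amino acids, went in opposite directions in the Σ1278b strains with more and without MSS11. ARO10 was 9.94 with FLO8, 9.90 with MSS11, 11.23 in the mss11 deletion and 10.66 in the second wild type, and ARO9 was 10.69, 10.73, 11.93 and 11.24 on the same arrays. The 3 differences share that wild type array. In the first wild type ARO10 was 10.56, 10.62 and 10.45 and ARO9 11.07, 11.17 and 11.06, so the FLO8 and MSS11 arrays lay below and the deletion above all 4 wild type arrays for both genes. ARO80, which encodes their activator, was within 0.12 log2 units of the wild type on all 3 arrays.

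The glycine cleavage genes GCV1 and GCV2 were lower with FLO8 by −0.47 and −0.43 and with MSS11 by −0.48 and −0.44, while the deletion gave 0.25 and 0.07. CAR2 differed by −0.45 with FLO8, 0.10 with MSS11 and −0.72 in the deletion from the second wild type, where it was 9.56. Its signals of 9.11, 9.66 and 8.84 on those arrays were all above the first wild type, which had 8.08, 8.40 and 8.23. The signs for FLO8 and the deletion thus depended on the wild type used.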
